A study of Mus musculus with 40 samples.

Results

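The symbols Tnnt2, Tnni3, Tnnc1, Tpm1, Myl2, Myl3, Mybpc3, Ttn, Tcap and Nexn make up the cardiac sarcomere structural genes described here. They were taken by name wherever the symbol was a row of the deposited expression table, and all 10 of the 10 were rows of that table, which lists 11450 genes. All 10 also entered the tests, which took in 11390 genes that reached 1 RPKM in no fewer than 4 libraries. RPKM corrects the reads of a gene for its length and for a library size, so levels of different genes are compared here per length. Which library size was used is not given in the sources used here. Adult C57BL/6 mice had the left anterior descending coronary artery tied off for good, and hearts were taken at 3, 7, 14, 21 or 42 days. Each heart gave 1 injured library, from the fibrotic scar, and 1 uninjured library, from myocardium away from it. There were 4 mice a day, so the 5 injured and the 5 uninjured groups held 4 libraries each, 40 libraries from 20 mice in all. The uninjured libraries come from ligated hearts and are not a measure of an unoperated heart. The mice of day 42 alone carry animal labels that start with B, and what the letter stands for is not given in the sources used here. If it marks a cohort, cohort and day cannot be told apart there. Some A labels recur on several days, so a label names a mouse only together with its day.

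The sarcomere is the repeating contractile unit of striated muscle, in which myosin of the thick filament pulls on actin of the thin filament. In the heart, calcium binds troponin C (Tnnc1), troponin I (Tnni3) releases its inhibition, and troponin T (Tnnt2) passes the shift to tropomyosin (Tpm1), which uncovers the myosin sites on actin. The myosin light chains Myl2 and Myl3 stiffen and tune the myosin neck, myosin binding protein C (Mybpc3) sets how freely the heads reach for actin, and titin (Ttn) is the giant spring that spans from the Z disc to the M band. Telethonin (Tcap) caps the Z disc end of titin, and nexilin (Nexn) is an actin-binding protein of the Z disc and of the junctions with the surface membrane. Tnni3, Myl2, Myl3 and Mybpc3 are largely restricted to heart or slow striated muscle, while Tpm1 also gives tropomyosins of smooth muscle and non-muscle cells and Nexn is also made in smooth muscle. The values are per gene, so that isoforms of Tnnt2, Tpm1 or Ttn are not separated.

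The stretch before the start site is shown for 4 of the members whose windows hold sequence patterns of factors long tied to heart muscle genes. Windows of 250 bases before the start site were read from RefSeq's GRCm38.p6 set for the 8 members that it lists, with the first entry of each gene used, and Tcap and Nexn had no entry. Capitals mark matches on either strand to 5 patterns, of which MCAT is spelled CATTCC and the GATA pattern sought here is spelled AGATAA. The TATA box was sought as TATAAA and the CArG box and MEF2 motif by their usual consensus, and no capitals overlap between motifs in these 4 windows. The windows lie at chr1:135836084-135836333 on the plus strand (Tnnt2), chr2:76982548-76982797 on the minus strand (Ttn), chr2:91117894-91118143 on the plus strand (Mybpc3) and chr9:110763428-110763677 on the plus strand (Myl3), each written 5′ to 3′ in the direction of the gene.
Tnnt2: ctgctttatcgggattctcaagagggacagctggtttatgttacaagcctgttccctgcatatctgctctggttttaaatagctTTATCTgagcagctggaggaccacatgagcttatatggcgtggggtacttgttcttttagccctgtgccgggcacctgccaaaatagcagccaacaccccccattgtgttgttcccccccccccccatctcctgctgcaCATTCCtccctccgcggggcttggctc
Ttn: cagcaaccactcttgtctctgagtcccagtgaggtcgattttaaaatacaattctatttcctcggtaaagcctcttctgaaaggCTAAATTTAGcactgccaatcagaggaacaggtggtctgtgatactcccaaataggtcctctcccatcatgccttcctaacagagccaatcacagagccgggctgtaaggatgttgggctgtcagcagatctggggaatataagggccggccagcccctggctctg
Mybpc3: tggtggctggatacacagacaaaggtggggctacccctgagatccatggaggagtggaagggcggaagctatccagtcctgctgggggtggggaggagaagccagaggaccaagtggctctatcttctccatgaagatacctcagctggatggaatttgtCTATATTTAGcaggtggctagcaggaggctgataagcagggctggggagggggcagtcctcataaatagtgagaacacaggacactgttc
Myl3: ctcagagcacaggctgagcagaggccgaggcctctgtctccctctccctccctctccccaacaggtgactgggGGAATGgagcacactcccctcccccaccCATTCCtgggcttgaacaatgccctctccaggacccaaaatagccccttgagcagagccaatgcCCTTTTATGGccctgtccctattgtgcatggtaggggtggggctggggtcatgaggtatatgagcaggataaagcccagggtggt
An MCAT match was found in 4 of the 8 windows (Tnnt2, Tpm1, Myl3 and Tnnc1), against 12.6% of all 32851 windows of that length, and a GATA match in 2 (Tnnt2 and Myl2), against 9.99%. A MEF2 match was found in Ttn and Mybpc3, against 2.92% of all windows, and a CArG box in Myl3, against 1.47%. The TATAAA string was in 0 of the 8 first-listed windows and in 12.4% of all windows. The Tnni3 window held none of the 5 patterns. Each window precedes the start site of its RefSeq entry, which is not always the edge of the gene span given below. The Myl2 window ends at 122092723, while the span given for Myl2 starts at 122100951. The Tnni3 and Myl3 windows lie within the spans given for these genes, and the Tpm1 window overlaps its span. These matches are a description of the letters and do not show that a factor binds there.

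The whole reads behind the RPKM could be worked back for every gene, and they summed to 12123945 to 33596397 per library. Libraries of the injured region had a lower total of recovered reads for the library size that the RPKM imply: the injured value of that ratio was 0.591 times the uninjured value at the median. Scaling to the totals therefore moved the median injured minus uninjured log2 difference of all genes to between 0.58 and 0.68, against 0.03 to 0.06 as deposited, and what the gap stems from was not tested. Of 10 cardiomyocyte markers outside the sarcomere, all 10 were lower in the injured region on each day, against 38.7% to 41.0% of all genes. Their summed level ranged from 536 to 3633 RPKM in injured libraries and from 12734 to 21976 RPKM in uninjured libraries. In bulk tissue, fewer cardiomyocytes and less RNA per cardiomyocyte cannot be told apart. Of the 10 genes, 5 share exon bases with another annotated gene, at most 7.5% of them, and whether the counting used strand is not given in the sources used here. None of 4 lung markers and 1 of 11 skeletal muscle markers (Tnnt3, at most 6.42 RPKM) was a row of the table.

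All 10 genes were lower in the injured region at days 3, 7 and 42, and 9 of 10 were at days 14 and 21, where Nexn did not pass the test. The test was limma on log2(RPKM + 1) with the mouse as a block and Benjamini-Hochberg adjustment over all genes. On that scale the change of a gene with low values comes out too small. Of all genes 39.6%, 38.7%, 40.5%, 41.0% and 38.7% were called lower at days 3, 7, 14, 21 and 42. The median log2 difference of the 10 genes was -2.87, -3.52, -2.46, -2.59 and -2.12 on these days in order, while that of all genes was between 0.03 and 0.06. The injured and uninjured values did not overlap for 10 of 10 genes at days 3, 7, 21 and 42 and for 9 of 10 at day 14. Among all genes, 37.3%, 33.9%, 37.3%, 38.3% and 35.1% of all genes had every injured value below every uninjured value on the 5 days in order. With values scaled to the total of recovered reads, 10, 10, 9, 9 and 9 members were called lower at days 3, 7, 14, 21 and 42, against 19.0%, 20.7%, 18.2%, 18.1% and 16.7% of all genes. Nexn then lay above 0 at days 14 and 21 without passing (0.29 and 0.33). With quantile normalization the median of the 10 genes was -1.71, -2.80, -1.33, -1.35 and -1.09 on the 5 days in order. There 7 of the 10 were called lower at day 42. The share of all genes called lower with quantile normalization is not given here, so that count cannot be set against all genes.

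**Figure D1:**
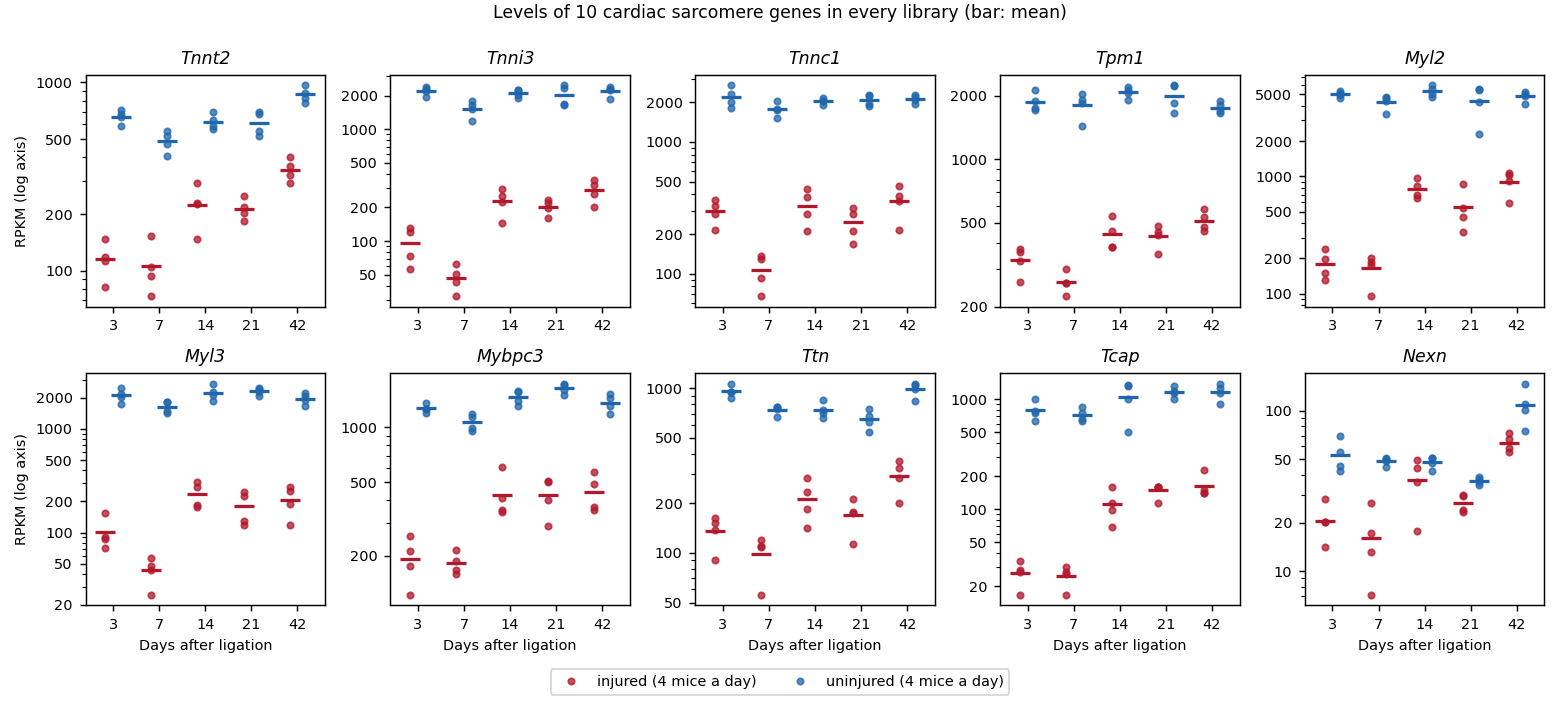
RPKM (log axis) of the 10 genes in each of the 40 libraries by day after ligation, with injured libraries in red to the left of uninjured libraries in blue, 4 mice a day, and bars at the means; days are evenly spaced. The injured points lie below the uninjured points in every panel and on every day except for Nexn at day 14.

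Cardiac troponin T, Tnnt2 (mm10 chromosome 1, 135836354 to 135852260), was reduced least among the troponins. At day 3 it was at 82.3, 113, 118 and 147 RPKM in injured libraries and at 584, 659, 676 and 717 RPKM in uninjured libraries. At day 42 the injured libraries were at 294, 321, 361 and 401 RPKM and the uninjured libraries at 779, 827, 881 and 968 RPKM. The groups stayed apart on every day, and the injured level was 17.4% ± 3.58 of the uninjured level of the same heart at day 3 and 40.4% ± 8.72 at day 42 (SD, n = 4 mice each). The log2 difference was -2.53 ± 0.18 at day 3 and -1.33 ± 0.18 at day 42 (SE, limma adjusted p at most 8.8e-07 over the 5 days). With quantile normalization the call at day 42 ended (-0.28, adjusted p = 0.144), and it passed at each of the 5 days in every other alternative run.

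Troponin I, Tnni3 (chromosome 7, 4518305 to 4524229), the inhibitory subunit, was among the 4 most reduced members. At day 7 it was at 32.2, 43.1, 50.8 and 62.0 RPKM in the injured libraries, against 1195, 1506, 1634 and 1770.1 RPKM in the uninjured libraries. The log2 difference was -4.60 ± 0.21 at day 3, -5.01 ± 0.21 at day 7 and -2.97 ± 0.21 at day 42 (limma adjusted p at most 3.43e-11). The injured level was 3.22% ± 1.38 of the partner's at day 7 and 12.9% ± 2.12 at day 42.

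Troponin C, Tnnc1 (chromosome 14, 31208312 to 31211729), the calcium sensor that heart shares with slow skeletal muscle, had its lowest injured level at day 7. Injured libraries held 215, 285, 326 and 359.9 RPKM at day 3 and 67.4, 92.5, 128 and 136 RPKM at day 7, while the uninjured libraries of day 7 held 1510.3, 1752, 1791 and 2032 RPKM. All 4 injured values of day 7 were below all 4 of day 3. The log2 difference between regions was -2.90 ± 0.22 at day 3, -4.09 ± 0.22 at day 7 and between -3.12 and -2.63 on the later days (limma adjusted p at most 5.05e-10). Tropomyosin Tpm1 (chromosome 9, 67022590 to 67049406) had the highest injured level of the 10 genes at days 3 and 7, at 333 ± 50.6 and 260.4 ± 31.9 RPKM (SD, n = 4 each), and was second to Myl2 from day 14. Its uninjured level was 1868 ± 188 RPKM at day 3, where 4 members lay higher. Its log2 difference ran from -2.79 ± 0.14 at day 7 to -1.78 ± 0.14 at day 42 (limma adjusted p at most 2.69e-10).

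Of the thick filament, Myl2 (chromosome 5, 122100951 to 122113472), the regulatory light chain of the ventricle, had the highest uninjured level of the 10 genes on each day. At day 3 it was at 131, 151, 196 and 239 RPKM in injured libraries, against 4688, 4969, 5107 and 5382 RPKM in uninjured libraries. At day 42 the injured values were 595, 912, 1018 and 1070.0 RPKM and the uninjured values 4122, 4883, 5033 and 5199.6 RPKM. The groups did not overlap, and the log2 difference was -4.84 ± 0.21 at day 3, -2.78 ± 0.21 at day 14 and -2.45 ± 0.21 at day 42 (limma adjusted p at most 5.61e-10). The uninjured library of 1 mouse of day 21 (animal label A10) stood at 2316 RPKM, against 4316, 5416 and 5554 RPKM in the other 3, while its Myl3 level of 2251 RPKM lay within theirs, from 2095 to 2468 RPKM. The injured library of the same mouse was also the lowest of its group in Myl2, at 335 RPKM against 453, 541 and 855 RPKM.

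Myl3 (chromosome 9, 110741861 to 110769798), the essential light chain, was lowest at day 7, with 25.0, 43.9, 47.1 and 56.6 RPKM in injured libraries and 1413, 1500.1, 1808 and 1835 RPKM in uninjured libraries. That difference of -5.26 ± 0.23 was the largest of any of the 10 genes on any day, and the injured level was 2.71% ± 1.02 of the partner's. At day 42 the difference was -3.29 ± 0.23 and the injured level 10.7% ± 3.70 of the partner's (limma adjusted p at most 4.02e-11 over the days). Mybpc3 (chromosome 2, 91118144 to 91136516), which tethers and regulates myosin heads, was reduced less than both light chains on each day. It was at 158, 167, 187 and 215 RPKM in injured libraries and at 958, 983, 1131 and 1180.0 RPKM in uninjured libraries at day 7. Its log2 difference was -2.76 ± 0.18 at day 3 and -1.63 ± 0.18 at day 42 (limma adjusted p at most 4.79e-08), and with quantile normalization the call at day 42 ended (-0.42, adjusted p = 0.0731).

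Titin, Ttn (chromosome 2, 76703980 to 76982547), had 136 ± 32.0 RPKM in injured and 962 ± 76.4 RPKM in uninjured libraries at day 3, and 294 ± 69.2 against 985 ± 107 RPKM at day 42 (SD, n = 4 each). Because its transcript is so long, titin held 55.3% to 78.7% of the recovered reads of the 10 genes in a library. The log2 difference was -2.85 ± 0.18 at day 3, -2.94 ± 0.18 at day 7 and between -1.95 and -1.77 from day 14 (limma adjusted p at most 1.28e-08). At day 7 the injured library of mouse A10 was at 55.6 RPKM, below the 109, 111 and 119 RPKM of the others. All 10 genes together took 2.72% ± 0.618 of the recovered reads in injured libraries and 11.8% ± 0.295 in uninjured libraries at day 3, and 5.77% ± 1.07 against 12.4% ± 1.63 at day 42. These shares do not depend on how the deposited RPKM were scaled between libraries.

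Telethonin, Tcap (chromosome 11, 98383811 to 98384953), was at 16.7, 27.2, 27.8 and 33.7 RPKM in injured libraries and at 639, 754, 778 and 1013 RPKM in uninjured libraries at day 3. It was at 16.7, 25.9, 26.8 and 30.2 RPKM in injured libraries at day 7, against 633, 666, 744 and 854 RPKM in uninjured libraries. The injured level was 3.28% ± 0.467 of the partner's for day 3 and 3.47% ± 0.871 for day 7. It was 10.98% ± 2.32 for day 14 and 14.1% ± 2.83 for day 42. Its log2 difference was -4.89 ± 0.15 at day 3 and -2.84 ± 0.15 at day 42 (limma adjusted p at most 6.84e-13).

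Nexilin, Nexn (chromosome 3, 152236982 to 152266350), had the lowest level of the 10 genes in each group and the smallest difference between the regions on each day. It was at 14.1, 20.2, 20.2 and 28.1 RPKM in injured libraries and at 42.4, 45.6, 55.8 and 69.4 RPKM in uninjured libraries at day 3. At day 14 the injured values of 17.9, 36.1, 44.0 and 49.4 RPKM overlapped the uninjured values of 41.9, 47.0, 50.7 and 50.9 RPKM, and 3 of 4 mice had the lower value in the injured region. At day 21 the injured values of 23.2, 24.2, 29.6 and 29.99 RPKM all lay below the uninjured values of 34.5, 35.9, 37.7 and 38.5 RPKM. The log2 difference for day 3 was -1.34 ± 0.25 and for day 7 -1.68 ± 0.25 (limma adjusted p = 7.01e-05 and 5.01e-06). It was -0.45 ± 0.25 for both day 14 and day 21 (0.107 each) and -0.73 ± 0.25 for day 42 (0.0128). Taken from the 8 libraries of day 21 alone, the same difference passed the test (adjusted p = 0.00238). The call at day 42 ended without mouse B9 (-0.54, adjusted p = 0.0949), without mouse B12 (-0.65, 0.0576), with quantile normalization (-0.09, 0.776) and when scaled to the sum of recovered reads (-0.02, 0.95), where the median of all genes was 0.59.

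**Figure D2:**
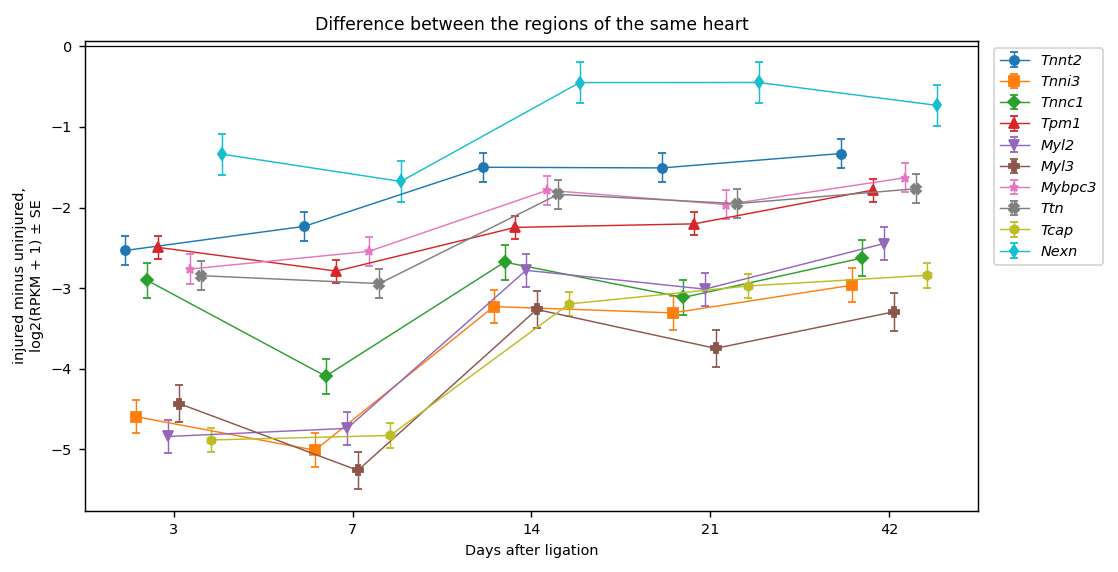
Injured minus uninjured difference in log2(RPKM + 1) for each of the 10 genes by day (points, with the SE of the limma fit as bars; lines join the days of a gene; days are evenly spaced and points set side by side). Tcap, Myl2, Tnni3 and Myl3 start between -4.89 and -4.43 at day 3, and Nexn lies nearest to 0 on each day.

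The size of the difference depended on the day for all 10 genes (limma F test over the 4 differences between days, adjusted p from 2.15e-08 for Tcap to 0.0128 for Nexn), as it did for 74.3% of all genes. For Tpm1 that call ended without the mice of day 42 (adjusted p = 0.0749). The differences at days 3 and 7 were both larger than those at days 14, 21 and 42 for 9 of the 10 genes, the exception being Tnnc1, at -2.90 at day 3 and -3.12 at day 21. When the injured libraries were taken alone, all 10 genes also changed over the days, as did 87.6% of all genes. To see which region moved, the days were compared within each region, each mouse giving 1 library.

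Between day 3 and day 7, 4 of 10 genes fell in the injured region, against 32.7% of all genes called lower in that step. On the log2 scale Tnnc1 fell by 1.502 ± 0.28, Myl3 by 1.19 ± 0.32, Tnni3 by 0.97 ± 0.26 and Tpm1 by 0.35 ± 0.15 (limma adjusted p = 0.000153, 0.00321, 0.00394 and 0.0477). The Tpm1 call ended when single mice were left out, for example mouse A10 of day 7 (-0.28, adjusted p = 0.13), and when only the libraries of the 2 days were used (adjusted p = 0.0766). The other 6 genes had differences from -0.48 (Ttn) to -0.04 (Mybpc3), none past the test. Beside this, 8 of 8 fibroblast markers were higher at day 7 than at day 3 in the injured region (median of 1.59, 27.7% of all genes higher). Of 10 cardiomyocyte markers 3 were lower (median of -0.45). Mean summed levels rose for macrophage markers (470 to 721 RPKM) and for smooth muscle and pericyte markers (419 to 773 RPKM). That of endothelial markers fell (195 to 93.9 RPKM). The part of these markers in the members' step was not tested.

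Between day 7 and day 14 all 10 genes rose in the injured region, against 21.9% of all genes called higher. Myl3 was at 178, 184, 273 and 310.4 RPKM at day 14, against 25.0, 43.9, 47.1 and 56.6 RPKM at day 7, with no overlap (2.44 ± 0.32, limma adjusted p = 1.21e-05). Myl2 was higher by 2.28 ± 0.28, Tnni3 by 2.26 ± 0.26, Tcap by 2.08 ± 0.24 and Tnnc1 by 1.62 ± 0.28 on the log2 scale. Mybpc3, Nexn, Ttn and Tnnt2 were higher by 1.21, 1.20, 1.11 and 1.08, and Tpm1 by 0.75 ± 0.15 (limma adjusted p at most 0.00447). For Nexn the call ended with only the libraries of the 2 days (adjusted p = 0.0573). In the same step 10 of 10 cardiomyocyte markers outside the sarcomere were higher (median of 1.79). Of 8 macrophage markers 6 were lower (median of -0.71, 21.2% of all genes lower). Mean summed levels also fell for fibroblast markers (5399 to 3647 RPKM) and for smooth muscle and pericyte markers (773 to 466 RPKM). The part of these markers in the members' rise was not tested.

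Between day 14 and day 21 none of the 10 genes passed the test in the injured region, with differences from -0.59 (Myl2) to 0.47 (Tcap). In that step limma called 0 of 11390 genes (0.0%), with 1496 at an unadjusted p under 0.05. Over the longer span, 7 of 10 genes were higher at day 21 than at day 3 (32.5% of all genes called higher), led by Tcap at 2.48 ± 0.24, Myl2 at 1.56 ± 0.28, Mybpc3 at 1.16 ± 0.23 and Tnni3 at 1.15 ± 0.26 (limma adjusted p at most 0.000819). Tnnc1, Ttn and Nexn had differences of -0.29, 0.32 and 0.39 that did not pass. The calls of Tpm1 (0.38, adjusted p = 0.0285) and Myl3 (0.82, 0.0283) ended without single mice, among them mouse A7 of day 3 (0.27 and 0.68, adjusted p = 0.119 and 0.0893).

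Between day 21 and day 42 Tnnt2, Ttn and Nexn rose in the injured region, 3 of 10 genes against 11.2% of all genes called higher. Nexn was at 55.0, 58.8, 67.2 and 72.6 RPKM at day 42, against 23.2, 24.2, 29.6 and 29.99 RPKM at day 21 (1.22 ± 0.31, limma adjusted p = 0.0083). Tnnt2 was higher by 0.68 ± 0.22 and Ttn by 0.79 ± 0.27 (limma adjusted p = 0.0277 and 0.0382), and Ttn alone of the 3 overlapped, with 201, 286, 329 and 360.5 RPKM at day 42, against 113, 174, 177 and 213 RPKM at day 21. The calls of Tnnt2 and Ttn ended without mouse B3 of day 42 (adjusted p = 0.0831 and 0.113) and without mouse A4 of day 21 (0.62 and 0.61, adjusted p = 0.0673 and 0.117), among others. In that step 0 of 10 cardiomyocyte markers passed the test (median of 0.35). Lower were 3 of 8 fibroblast markers, the collagen genes Col1a1, Col1a2 and Col3a1 (-1.89, -1.05 and -0.83), and 3 of 9 smooth muscle and pericyte markers, against 13.6% of all genes. Their part in the rise of the 3 genes was not tested.

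Over the 5 days 7 of 10 genes changed in the uninjured region (limma F test, 47.2% of all genes), and Tnnc1, Tpm1 and Myl2 did not pass (adjusted p = 0.182, 0.334 and 0.408). Tnnt2, Tnni3 and Ttn were lower at day 7 than at day 3, by 0.44 ± 0.12, 0.55 ± 0.14 and 0.38 ± 0.11 on the log2 scale (3 of 10, 14.5% of all genes lower; adjusted p at most 0.0157). Those 3 calls ended with quantile normalization (-0.13, -0.20 and -0.10, adjusted p = 0.24, 0.214 and 0.583), and that of Ttn also when scaled to read totals (-0.22, 0.216). Tnni3, Myl3 and Mybpc3 were higher at day 14 than at day 7, by 0.47, 0.45 and 0.45 (3 of 10, 7.49% of all genes higher; adjusted p at most 0.0354). Quantile normalization ended these 3 calls as well, and so did scaling to read totals. Between day 14 and day 21 none of the 10 genes passed, and 1 of 11390 genes did (0.00878%), with 573 at an unadjusted p under 0.05.

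From day 21 to day 42 the same 3 symbols as in the injured region passed in the uninjured region, where 10.4% of all genes were called higher. Nexn was at 75.1, 101, 111 and 148 RPKM at day 42, against 34.5, 35.9, 37.7 and 38.5 RPKM at day 21, with no overlap (1.5002 ± 0.16, limma adjusted p = 2.72e-06). Ttn was at 833, 986, 1052 and 1066 RPKM, against 542, 623, 676 and 746 RPKM (0.61 ± 0.11, adjusted p = 0.000635). Tnnt2 was at 779, 827, 881 and 968 RPKM, against 522, 550.1, 677 and 694 RPKM (0.51 ± 0.12, adjusted p = 0.00437). All 3 sets of day 42 lay above those of day 21, and the 3 calls passed in every alternative run. The regions of a day come from the same hearts, and if the B labels mark a cohort, cohort and day cannot be told apart for day 42. In the uninjured region 6 of 9 smooth muscle and pericyte markers and 4 of 8 fibroblast markers were lower at day 42 than at day 21 (10.1% of all genes), while 0 of 10 cardiomyocyte markers passed, and their part was not tested. Over days 3 to 21, within the mice with A labels, Ttn and Nexn were lower by 0.58 ± 0.11 and 0.50 ± 0.16 and Mybpc3 was higher by 0.36 ± 0.10 (adjusted p = 0.00267, 0.0404 and 0.0273; 5.78% of all genes lower and 5.72% higher). The Nexn and Mybpc3 calls of that span ended when single mice were left out, such as mouse A4 of day 21 (-0.52 and 0.33, adjusted p = 0.0737 and 0.0769).

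**Figure D3:**
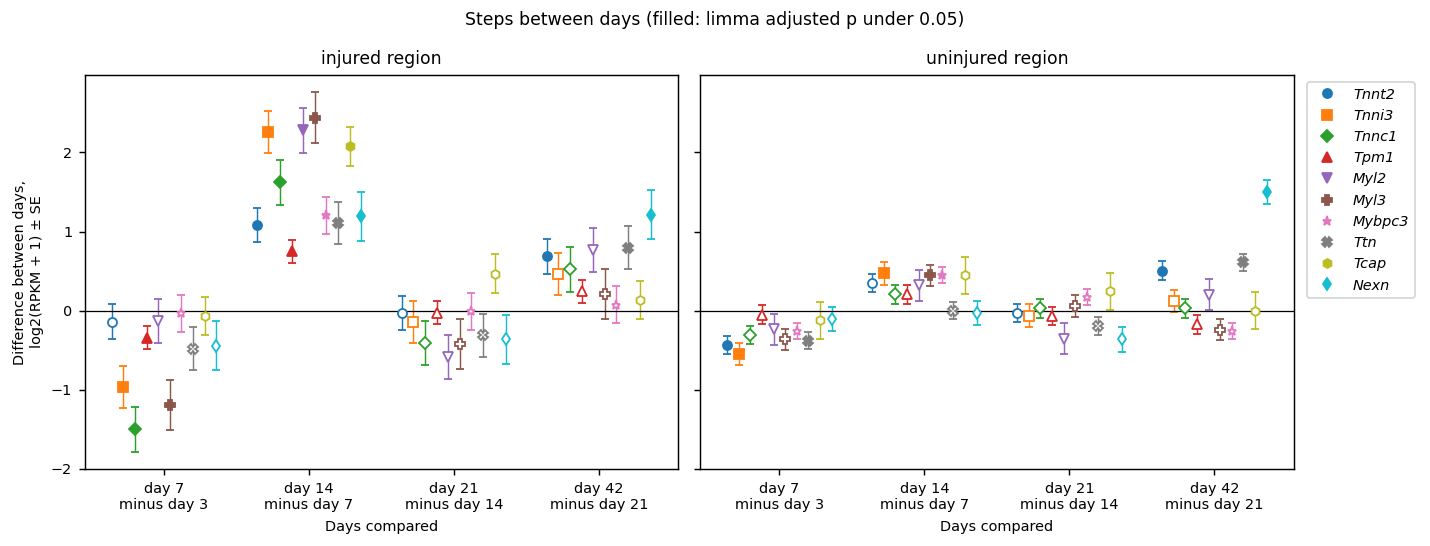
Difference between days in log2(RPKM + 1) for each of the 10 genes (points, with the SE of the limma fit of 20 libraries as bars), in the injured region (left) and the uninjured region (right); neighbouring steps share the libraries of 1 day. All 10 points are filled, past the test, and above 0 for day 14 minus day 7 in the injured region, and only Tnnt2, Ttn and Nexn are filled for day 42 minus day 21 in either region.

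Ratios within a library do not depend on scaling between libraries, so each gene was set against Tnnt2. Tnni3, its partner in the troponin complex, had log2 ratios over Tnnt2 of -0.61, -0.53, -0.29 and 0.16 in injured libraries at day 3, against 1.62, 1.74, 1.77 and 1.87 in uninjured libraries. At day 7 the injured ratios were -1.30, -1.18, -1.12 and -1.04 and the uninjured ratios 1.55, 1.66, 1.67 and 1.68. Transcripts of troponin I were thus 3.37 ± 0.238 times those of troponin T per length in uninjured libraries of day 3 and 0.820 ± 0.211 times in the injured ones (SD, n = 4 each). Relative to Tnnt2, 4, 7, 6, 8 and 7 of the other 9 genes were lower in the injured region at days 3, 7, 14, 21 and 42, against 2.06%, 3.24%, 4.87%, 5.22% and 4.97% of all genes. Nexn alone of the 9 was higher on each day, but so were 94.6%, 92.7%, 86.1%, 85.6% and 84.9% of all genes, since Tnnt2 itself was lower. The Nexn call at day 7 did not hold with each mouse left out in turn (limma adjusted p up to 0.0556).

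Tnni3, Myl2, Myl3 and Tcap were lower relative to Tnnt2 on all 5 days, with differences in log2 ratio from -3.03 ± 0.19 (Myl3, day 7) to -1.12 ± 0.19 (Myl2, day 42). Tnnc1 joined them from day 7, with -1.86 ± 0.19 at day 7 and -1.30 ± 0.19 at day 42, and Tpm1 from day 7 with -0.75 to -0.45. All ratios carry the error of Tnnt2, which makes the moderated p-values of this fit too small, so variances of each gene alone were also used. With those the adjusted p was at most 1.55e-05 for Tnni3, Myl2, Myl3 and Tcap on each day, and the same calls held except for Tnnc1 at day 3, which was then called lower (-0.37, adjusted p = 0.0462, against 0.058). Of all genes 2.18%, 3.44%, 5.02%, 5.39% and 5.28% were lower and 94.8%, 92.9%, 86.2%, 85.5% and 84.8% higher at days 3 to 42 by those variances. Mybpc3 differed from Tnnt2 by -0.46 to -0.23 and Ttn by -0.71 to -0.31, and Tpm1 by 0.04 at day 3. Mybpc3 passed at day 21 (-0.46) and Ttn at days 7, 21 and 42 (-0.71, -0.44 and -0.44), and the day 21 calls of both ended without mouse A10 of that day (-0.37 and -0.36, adjusted p = 0.119 and 0.131). The day 42 calls of Ttn and Tpm1 ended without mouse B1 (-0.45 and -0.43, adjusted p = 0.0643 and 0.0726) and without mouse B3 (-0.39 and -0.38, 0.0992 and 0.103). That of Ttn also ended without mouse B12 (-0.35, 0.133) and without trend and robust moderation (0.053). The Tpm1 call at day 7 ended without mouse A12 of that day (-0.39, 0.0534). With Tnni3 as the denominator 0, 0, 0, 1 and 0 of the other 9 genes were lower on the 5 days in order, against 0.0351%, 0.0351%, 0.176%, 0.211% and 0.22% of all genes. On the same days 6, 6, 7, 5 and 6 were higher, against 99.6%, 99.8%, 98.9%, 98.9% and 98.7% of all genes. These counts describe distance from Tnnt2 and not from the 10 genes as a whole.

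**Figure D4:**
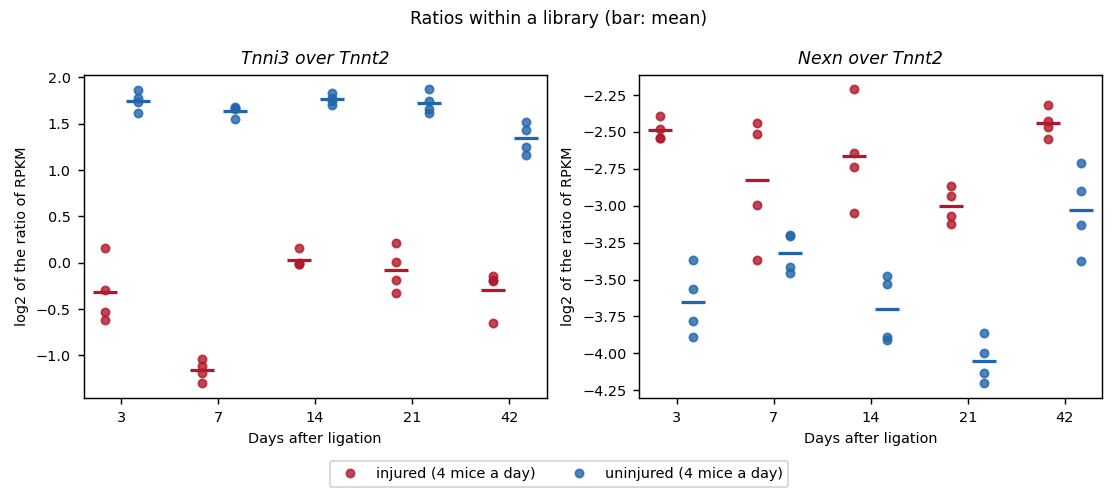
Log2 of the ratio of RPKM within a library for Tnni3 over Tnnt2 (left) and Nexn over Tnnt2 (right) by day, with injured libraries in red to the left of uninjured libraries in blue, 4 mice a day, and bars at the means; days are evenly spaced. The injured Tnni3 ratios lie below the uninjured ones on every day, and the injured Nexn ratios lie above the uninjured ones except at day 7, where they overlap.

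Within the uninjured region the ratio to Tnnt2 changed over the days for 8 of the 9 genes, all but Tcap (limma F test adjusted p = 0.0508), against 96.7% of all genes. Across mice the 10 genes deviated together more in the scar than away from it. After subtraction of the group means, Pearson's r over the 45 pairs of genes had a median of 0.72 (range 0.41 to 0.90) across the 20 injured libraries and of 0.31 (range -0.59 to 0.86) across the 20 uninjured libraries, which is given as a description since all genes of a library share its tissue and depth. The most negative pair away from the scar was Mybpc3 with Ttn.

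The genes whose pattern was most like the mean of the 10 were Myom1 (r = 0.997), Fabp3 (0.997), Casq2 (0.995), Perm1 (0.995) and Rbm20 (0.995) over the 40 libraries, as a description over libraries that share the 2 regions. Over the 20 injured libraries they were Myom1 (0.996), Fabp3 (0.995), Casq2 (0.990), Pde4dip (0.988) and Perm1 (0.986). Myom1 is the M band protein myomesin, Fabp3 the fatty acid carrier of heart muscle, Casq2 the calcium store protein of the sarcoplasmic reticulum, and Rbm20 the splicing factor of titin.

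Other genes of the sarcomere moved mostly the same way, while 38.7% to 41.0% of all genes were lower and 40.5% to 44.1% higher. Of 6 further thin filament genes all 6 were lower on each day (median of -3.18 at day 7), among them cardiac actin Actc1, with 953 RPKM in injured and 5206 RPKM in uninjured libraries at day 7 (-2.45 ± 0.21), the filament length proteins Lmod3 (-4.33 ± 0.21) and Tmod1 (-2.55 ± 0.16), and the cardiac kinase Tnni3k (-3.66 ± 0.12). Of 9 thick filament and M band genes 9, 8, 8, 8 and 8 were lower at days 3, 7, 14, 21 and 42. Myh6, the adult mouse heart's main myosin heavy chain, was at 205 RPKM in injured and 3812 RPKM in uninjured libraries at day 7 (-4.32 ± 0.28). Myh7, the slow heavy chain that the adult mouse ventricle makes little of, went the other way later, with 352 RPKM in injured and 109 RPKM in uninjured libraries at day 14 (1.75 ± 0.38, limma adjusted p = 0.000304) and 1.67 ± 0.38 at day 42. At day 21 it did not pass (0.80 ± 0.38, adjusted p = 0.0561). Of 10 genes for sarcomere assembly and chaperones all 10 were lower on each day, with the myosin methyltransferase Smyd1 at -4.36 ± 0.18, Klhl31 at -3.91 ± 0.20, Klhl40 at -2.04 ± 0.13 and the chaperone partner Bag3 at -1.22 ± 0.17 at day 7. With quantile normalization, though, the small heat shock protein Hspb7 was called higher at day 3 (0.43, adjusted p = 0.048, in place of -0.66). Of 26 further Z disc genes 19, 22, 20, 22 and 19 were lower and 2, 3, 2, 2 and 2 higher, the higher ones including Pdlim7 (1.16 ± 0.08 at day 7) and Pdlim3 (1.82 ± 0.15), and the lowest at day 7 being Myot (-3.97 ± 0.18) and Fhl2 (-3.83 ± 0.16). With values scaled to read totals 15, 19, 16, 18 and 15 of the 26 were lower and 9, 3, 7, 4 and 6 higher. Under that scaling 16.7% to 20.7% of all genes were called lower, and the share called higher is not given here. The median log2 difference of all genes then lay between 0.58 and 0.68. Palld, Cryab and Synpo2 changed sides on 1 or more days under that scaling, as did the M band gene Obsl1. With quantile normalization Cryab at day 3 and Ankrd1 at day 21 were called higher in place of lower.

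Relatives of the sarcomere genes that smooth muscle, non-muscle cells, skeletal muscle or the embryo use were split. Of 11 paralogs of the 10 genes that were rows, 4 were lower on each day and 6, 7, 7, 6 and 7 higher at days 3, 7, 14, 21 and 42. Of 6 actins and myosin heavy chains 2, 1, 1, 1 and 1 were lower and 4, 5, 5, 5 and 5 higher. Of all genes 39.6%, 38.7%, 40.5%, 41.0% and 38.7% were lower and 44.1%, 43.6%, 42.4%, 43.1% and 40.5% higher on these days. No call of the 17 turned round under the 3 other scalings. At day 7 the higher ones included the tropomyosins Tpm2 (1.58 ± 0.14 at day 7) and Tpm3 (0.75 ± 0.08), the light chains Myl6 (0.78 ± 0.10) and Myl9 (1.81 ± 0.13), smooth muscle actins Acta2 (2.17 ± 0.21) and Actg2 (3.27 ± 0.27), and the non-muscle myosins Myh9 (1.71 ± 0.08) and Myh10 (1.47 ± 0.10). Tpm4 was higher at day 3 (285 RPKM in injured and 95.0 RPKM in uninjured libraries, 1.59 ± 0.09) and not past the test at day 21 (0.16, adjusted p = 0.119). Myl12b was higher (0.65 ± 0.08) and Myl12a lower (-1.09 ± 0.09) at day 7. Myh11, the smooth muscle heavy chain, was lower at day 3 (-0.96 ± 0.13) and higher at day 42 (1.70 ± 0.13). At day 7 the lower ones included slow skeletal troponin T, Tnnt1 (-1.62 ± 0.12), Myl1 (-1.21 ± 0.23), and Mybpc2 (-1.91 ± 0.25). Skeletal actin Acta1 was furthest apart at day 21, with 12.5 RPKM in injured and 769 RPKM in uninjured libraries at day 21 (-5.76 ± 0.48). The uninjured library of mouse A11 held 1649.8 RPKM there and the other 3 held 435, 453 and 539 RPKM, a mean of 476 RPKM without it. Tnnt3, the fast skeletal troponin T, was higher at low levels (4.18 against 0.396 RPKM at day 7).

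Of 16 regulators of cardiac sarcomere genes 12, 11, 10, 9 and 9 were lower and 0, 3, 3, 4 and 2 higher. Among all genes 38.7% to 41.0% were lower and 40.5% to 44.1% higher on these days. Rbm20 (-2.93 ± 0.13 at day 7) and the serum response factor partner Myocd (-2.27 ± 0.12) were lower, and Tbx20 (0.70 ± 0.15) and the splicing factor Mbnl1 (0.36 ± 0.07) higher. With values scaled to read totals the counts became 6, 8, 7, 6 and 6 lower and 5, 6, 8, 8 and 8 higher. Of all genes 16.7% to 20.7% were called lower under that scaling, and the share called higher is not given here. That scaling also moved the median log2 difference of all genes up, to between 0.58 and 0.68. Celf1 and Mef2a changed sides, Mef2a at day 14 also with quantile normalization. Markers of other cells moved in the same libraries: 8 of 8 fibroblast markers were higher from day 7, their summed level at day 7 lying between 5037 and 5812 RPKM in injured and between 644 and 842 RPKM in uninjured libraries. Of 8 macrophage markers 6 or 7 were higher on each day, and of 9 smooth muscle and pericyte markers 6 or 7 were higher. Of all genes 40.5% to 44.1% were. The mean summed level of the smooth muscle and pericyte markers was lower in injured libraries at day 14 (466 against 500 RPKM). On days 3, 7, 21 and 42 it was higher, at 419, 773, 510 and 428 RPKM against 403, 440, 463 and 375 RPKM. Of 6 endothelial markers 5 were lower from day 7, against 38.7% to 41.0% of all genes. One of these, Emcn, was called higher at days 14, 21 and 42 when scaled to read totals (0.32, 0.25 and 0.39). At day 3, though, the summed endothelial level was higher in injured libraries (176 to 208 RPKM) than in uninjured libraries (152 to 167 RPKM). The part of these markers in the members' differences was not tested. Of 7 atrial markers 2, Nppa and Stard10, were rows of the table, Nppa being higher on each day (2.04 ± 0.30 at day 3).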

How the data were processed

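The RPKM values of 40 libraries were used as the authors deposited them, 1 column a library, with 0 columns left unmatched. The submitters' processing notes list STAR, edgeR and mm10. Which annotation, counting rule and library size lie behind the RPKM is not given in the sources used here. RNA was taken with the RNeasy kit and libraries with a TruSeq kit, per the labels' protocols. Values were tested as log2(RPKM + 1) with limma 3.58.1 (R 4.3.3, statmod 1.5.0) with trend and robust moderation, over 11390 genes of at least 1 RPKM in 4 or more libraries, at an adjusted p under 0.05. For regions, a fit of the 40 libraries held a term for each mouse and left 15 residual degrees of freedom, and days were compared within the 20 libraries of a region. Paired libraries also deviated together from their group means (r from 0.148 to 0.54 in the 20 mice).
Whole reads were recovered from the RPKM steps for 100.0% of genes (tolerance 0.01 reads), with a median of 577 reads per gene and library. A count test on these reads was not run. The ratio of a gene to Tnnt2 was tested on the difference of log2 values over 11389 genes. The code was tested on simulated data. Tables were handled in Python 3.11.15 with pandas 2.3.3 and numpy 2.4.6.
The 10 genes and all gene lists were chosen with earlier results of these data known. Every gene of the 10 and each paralog in the table is named, and of the other lists those named come from the 2 lowest and 2 highest at day 7, besides genes named after their values were seen because their call turned round under another scaling, and the 3 collagen genes. Alternatives were the pseudocount, the filter, 3 scalings, the block, the moderation, the denominator and each mouse left out.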

Additional observations from a re-analysis of the deposited data

Results flagged for a closer look

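Among 100 groups of 4 libraries (10 genes in 10 groups), 3 held a library far from the other 3 by Dixon's criterion. That is a gap over 0.829 of the range, taken on log2(RPKM + 1), and chance gives about 1 in 20 such groups. Ttn was at 55.6 RPKM in the injured library of mouse A10 at day 7, against 109.4 to 119.4 RPKM in the others (gap of 0.885 of the range). Tcap was at 113.7 RPKM in the injured library of mouse A4 at day 21, against 159.0 to 160.6 RPKM (0.971), and at 228.5 RPKM in that of mouse B3 at day 42, against 139.6 to 148.8 RPKM (0.871).
The injured minus uninjured difference changed between days for each of the 10 genes by the limma F test of that change, for which 74.3% of all genes passed. The adjusted p was 2.15e-08 for Tcap, 2.61e-07 for Myl2, 6.14e-06 for Tnni3, 7.02e-05 for Myl3, 0.000314 for Ttn, 0.000807 for Tnnt2, 0.00159 for Tnnc1, 0.00172 for Mybpc3, 0.00243 for Tpm1 and 0.0128 for Nexn.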

How the results depend on the processing

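The lower calls of the region comparison held in number under the filters, the pseudocount of 0.1, the median-ratio scaling and every left-out mouse (9 to 10 lower at day 42). With quantile normalization 7 were lower at day 42, and the medians were nearer to 0 on each day (-1.71 to -1.09 but for -2.80 at day 7). The share of all genes called lower with that normalization is not given. Leaving the replicate block out, or fitting it as a random effect, changed no call of the 10 genes (10, 10, 9, 9 and 10 lower), and paired libraries of a mouse come from the same heart. Scaling that was then centred on the median of all genes, added after seeing the data, moved no count. As deposited that median already lay between 0.03 and 0.06. The centred run is thus close to the main fit by construction and is not a separate check.
The steps between days depended more on the processing, and the cause was not tested. Shares of all genes are not given for these alternative runs of the steps, so their counts cannot be set against all genes. With quantile normalization 4 genes changed over the days in the uninjured region, and there 0 fell and 1 rose between days 3 and 7 (Tpm1, 0.44 in place of -0.05), 0 rose between days 7 and 14, and 0 were higher at day 21 than at day 3. Scaling to the total of recovered reads also left 0 rising in that region between days 7 and 14. Without trend and robust moderation 6 genes fell in the uninjured region between days 3 and 7 and 1 (Mybpc3) between days 21 and 42. With only the libraries of the 2 days 2 genes of that region were higher at day 21 than at day 3. With single mice left out, 1 to 4 genes rose between days 21 and 42 in the injured region. In the uninjured region 4 to 7 then changed over the days, 3 to 5 fell between days 3 and 7, 1 to 4 rose between days 7 and 14, 0 to 1 fell between days 21 and 42, and 1 to 2 were lower and 0 to 2 higher at day 21 than at day 3.
Counts relative to Tnnt2 depend by construction on the denominator. With Tnni3 in its place 0, 0, 0, 1 and 0 genes were lower and 6, 6, 7, 5 and 6 higher at days 3, 7, 14, 21 and 42, and these differences in log2 ratio turned positive: Mybpc3 1.83, 2.47, 1.44, 1.34 and 1.34 on the 5 days in order, Myl2 0.27, 0.45, 0.29 and 0.52 at days 7, 14, 21 and 42, Myl3 0.16 at day 3, Tcap 0.18, 0.0317, 0.33 and 0.12 at days 7, 14, 21 and 42, Tnnc1 1.69, 0.92, 0.55, 0.19 and 0.34 on the 5 days in order, Tpm1 2.22, 0.98, 1.11 and 1.18 at days 7, 14, 21 and 42 and Ttn 1.75, 2.07, 1.39, 1.36 and 1.20 on the 5 days in order. With the mean of Mb, Ryr2 and Atp2a2 as the denominator, Tnnt2 is tested too, so these counts are out of 10. Lower were 4, 3, 2 and 3 at days 7, 14, 21 and 42 (0.369% to 0.624% of all genes). Higher were 6, 5, 5, 5 and 5 on the 5 days in order (96.8% to 99.4% of all genes), Tnnt2 among them. These differences turned positive: Mybpc3 1.41, 1.28, 0.97, 0.85 and 0.79 on the 5 days in order, Tnnc1 1.28 and 0.0762 at days 3 and 14, Tpm1 1.03, 0.51, 0.61 and 0.64 at days 7, 14, 21 and 42 and Ttn 1.33, 0.88, 0.92, 0.86 and 0.65 on the 5 days in order. Without single mice 0 to 1 genes were higher relative to Tnnt2 at day 7, where Nexn was the 1 called with all mice. Depth was at least 12123945 recovered reads per library, and 4 mice a day limit the precision of the differences.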
